A study of Mus musculus with 12 samples.

Results

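The genes described here are the sensor and checkpoint kinases of the DNA damage response, with the adaptors and ubiquitin ligases that work beside them. The list names 10 genes: Atm, Atr, Chek1, Chek2, Wee1, Mdc1, Rnf8, Rnf168, Trp53bp1 and Trp53. Members were found by their symbol in the platform annotation, and where a gene had several probe sets the brightest was used. Of the 10, 9 had a probe set of their own and all 9 passed the brightness limit, out of 15348 genes tested. Trp53 had none under its symbol in the annotation used here and is not analysed. Their transcripts were measured with Affymetrix arrays in LSK cells, which are the Lineage-, SCA1+, cKIT+ fraction of femoral bone marrow that is rich in blood stem and progenitor cells. The 12 arrays form 4 groups of 3: NIPA KO cells irradiated with 4 Gy, untreated NIPA KO cells, Wild Type (WT) cells irradiated with 4 Gy and untreated WT cells. NIPA is encoded by Zc3hc1. All donors were over 20 months old and had been backcrossed to C57BL/6 for 10 or more generations. Each array holds the merged cells of 3 mice, sorted, kept for 30 min in medium with serum, IL-3, IL-6 and SCF, and harvested after 3 h. The labels say neither how the knockout allele was made nor whether a pool was split between doses, so p-values measure the spread between these arrays, which may be technical.

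A DNA double-strand break activates the kinase ATM, while single-stranded DNA at stalled forks and resected ends activates its relative ATR. ATM phosphorylates CHK2, and ATR phosphorylates CHK1; both lines restrain the CDC25 phosphatases and act on p53, and WEE1 holds back CDK1 by a phosphorylation of its own. At the break, MDC1 binds the phosphorylated histone H2AX and brings in RNF8, which together with RNF168 builds the ubiquitin marks on which 53BP1, the product of Trp53bp1, gathers. These proteins are chiefly controlled by phosphorylation and by recruitment to the break, and the arrays measure only the level of their transcripts.

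The 250 bases upstream of the RefSeq start (build GRCm38.p6, gene strand, 5′ to 3′) are shown for 3 members that fell after irradiation when both genotypes were averaged, Atm, Chek1 and Mdc1, and for Chek2, whose differences were positive. Capitals mark matches, on either strand, to the CCAAT box (CCAAT), to an E2F core (GCGGGAA) or to the CHR element (TTTGAA), letters found in many promoters of cell cycle genes. The motifs were chosen after the expression values were known. Of the 10 members, 9 were in the promoter table; Wee1 was not.
Atm, chr9:53536672-53536921, minus strand: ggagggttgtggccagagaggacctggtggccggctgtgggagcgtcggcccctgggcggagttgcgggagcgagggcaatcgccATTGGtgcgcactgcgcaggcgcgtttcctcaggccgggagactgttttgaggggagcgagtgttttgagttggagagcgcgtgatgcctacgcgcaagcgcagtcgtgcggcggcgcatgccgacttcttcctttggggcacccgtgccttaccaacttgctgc
Chek1, chr9:36726659-36726908, minus strand: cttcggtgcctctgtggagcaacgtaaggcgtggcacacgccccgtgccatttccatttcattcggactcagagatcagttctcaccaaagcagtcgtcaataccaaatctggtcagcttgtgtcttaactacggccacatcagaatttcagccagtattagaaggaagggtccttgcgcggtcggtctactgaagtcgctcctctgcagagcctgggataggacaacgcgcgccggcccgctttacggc
Mdc1, chr17:35841248-35841497, plus strand: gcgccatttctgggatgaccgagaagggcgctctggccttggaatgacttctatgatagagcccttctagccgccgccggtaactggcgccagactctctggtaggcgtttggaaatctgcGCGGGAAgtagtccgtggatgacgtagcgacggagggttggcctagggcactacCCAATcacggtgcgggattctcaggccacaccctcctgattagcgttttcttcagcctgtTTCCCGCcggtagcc
Chek2, chr5:110839733-110839982, plus strand: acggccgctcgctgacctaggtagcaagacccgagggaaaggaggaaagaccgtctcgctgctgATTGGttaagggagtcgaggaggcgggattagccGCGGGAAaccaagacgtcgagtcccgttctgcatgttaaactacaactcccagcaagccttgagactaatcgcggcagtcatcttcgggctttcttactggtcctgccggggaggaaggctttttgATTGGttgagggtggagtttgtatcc
The Atm window held 1 CCAAT box, the Chek1 window none of the 3 motifs, the Mdc1 window 1 CCAAT box and 2 E2F cores, and the Chek2 window 2 CCAAT boxes and 1 E2F core, with no overlap between matches. Among 32851 such windows in the table, 33.85% held a CCAAT box, 3.82% an E2F core and 15.99% a CHR element. Of the member windows not shown, that of Rnf8 held 1 CHR element, 1 CCAAT box and 1 E2F core, with 1 overlap between matches. The Rnf168 window held 1 E2F core, the Trp53 window 1 CCAAT box, and the Atr and Trp53bp1 windows none. These are matches of letters, and no binding was measured.

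The array values are log2 expression values, and 1 unit is a factor of 2. Array medians ran from 5.74 to 5.85. Correlations across the genes tested were 0.960 to 0.986 within groups and 0.9395 to 0.9877 between groups, ranges that overlap. Zc3hc1 lay between 5.61 and 5.82 in the 6 KO arrays and between 7.67 and 8.47 in the 6 WT arrays. Of the markers that define the sort, Kit lay between 9.97 and 11.3, while Ly6a, which encodes SCA1, had no probe set of its own here. Of 10 stem and progenitor markers 8 were measured, from Cd34 at 11.5 to 12.3 down to Slamf1 at 5.12 to 5.94. Flt3, a receptor of early progenitors, fell after irradiation by 0.96 in KO (adjusted p = 0.0037) and 1.30 in WT cells (adjusted p = 0.00058), and Meis1 fell by 0.74 in KO cells (adjusted p = 0.014), with -0.41 in WT cells (adjusted p = 0.15). Differences were positive for 3 of the 8 in each genotype, and none of these passed. They were Procr (0.77 in KO and 0.56 in WT cells), Mecom (0.74 and 0.84) and Slamf1 (0.15 and 0.24). The median of the 8 was -0.05 in KO and -0.06 in WT cells. Of the 5 T and NK cell markers, 4 did not exceed the brightness limit of 5.29 in the 3 arrays required. Of 7 granulocyte and monocyte markers 6 passed that limit, among them Mpo at 11.0 to 12.3 and Elane at 9.99 to 11.8. Ebf1, a B-lineage factor, was at 9.51 in untreated KO array 2 and 9.62 in irradiated KO array 3, against 5.32 to 7.42 in the other 10 arrays. In such bulk samples, fewer cells of a type and less RNA per cell cannot be told apart.

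Atm, the kinase that responds to double-strand breaks, was the 1 member that fell in each genotype on its own. Its log2 values (probe set 17527054) were 7.79, 8.12 and 7.94 in irradiated KO cells, against 8.83, 9.01 and 8.93 in untreated KO cells. In WT cells they were 7.47, 7.72 and 7.61 after irradiation, against 8.22, 8.31 and 8.48 without it. No array of one group reached the range of another: untreated KO cells were highest, then untreated WT, irradiated KO and irradiated WT cells. Means were 7.95 ± 0.16 in irradiated and 8.92 ± 0.09 in untreated KO cells, and 7.60 ± 0.13 in irradiated and 8.34 ± 0.13 in untreated WT cells (SD, n = 3 each). The difference between irradiated and untreated cells was -0.97 in KO cells (SE 0.12, 95% CI -1.23 to -0.71, limma adjusted p = 0.00063), a 1.96-fold lower level. In WT cells it was -0.74 (SE 0.12, 95% CI -0.998 to -0.477, adjusted p = 0.0037), a 1.67-fold lower level. Under 21 alternatives of processing and of the arrays used, the adjusted p stayed between 0.00056 and 0.016 in KO and between 0.0023 and 0.026 in WT cells.

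Atr, the kinase that responds to single-stranded DNA, moved less. Its values (probe set 17520439) were 7.22, 7.53 and 7.14 in irradiated KO cells, against 7.58 in each of the 3 untreated KO arrays. WT cells had 7.24, 7.24 and 7.47 after irradiation and 7.35, 7.40 and 7.60 without it. The KO groups did not overlap and the WT groups did. The difference was -0.29 in KO cells (SE 0.13, adjusted p = 0.22) and -0.13 in WT cells (SE 0.13, adjusted p = 0.61), and neither passed the test. The 95% intervals ran from -0.56 to -0.01 in KO and from -0.41 to 0.14 in WT cells.

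**Figure D1:**
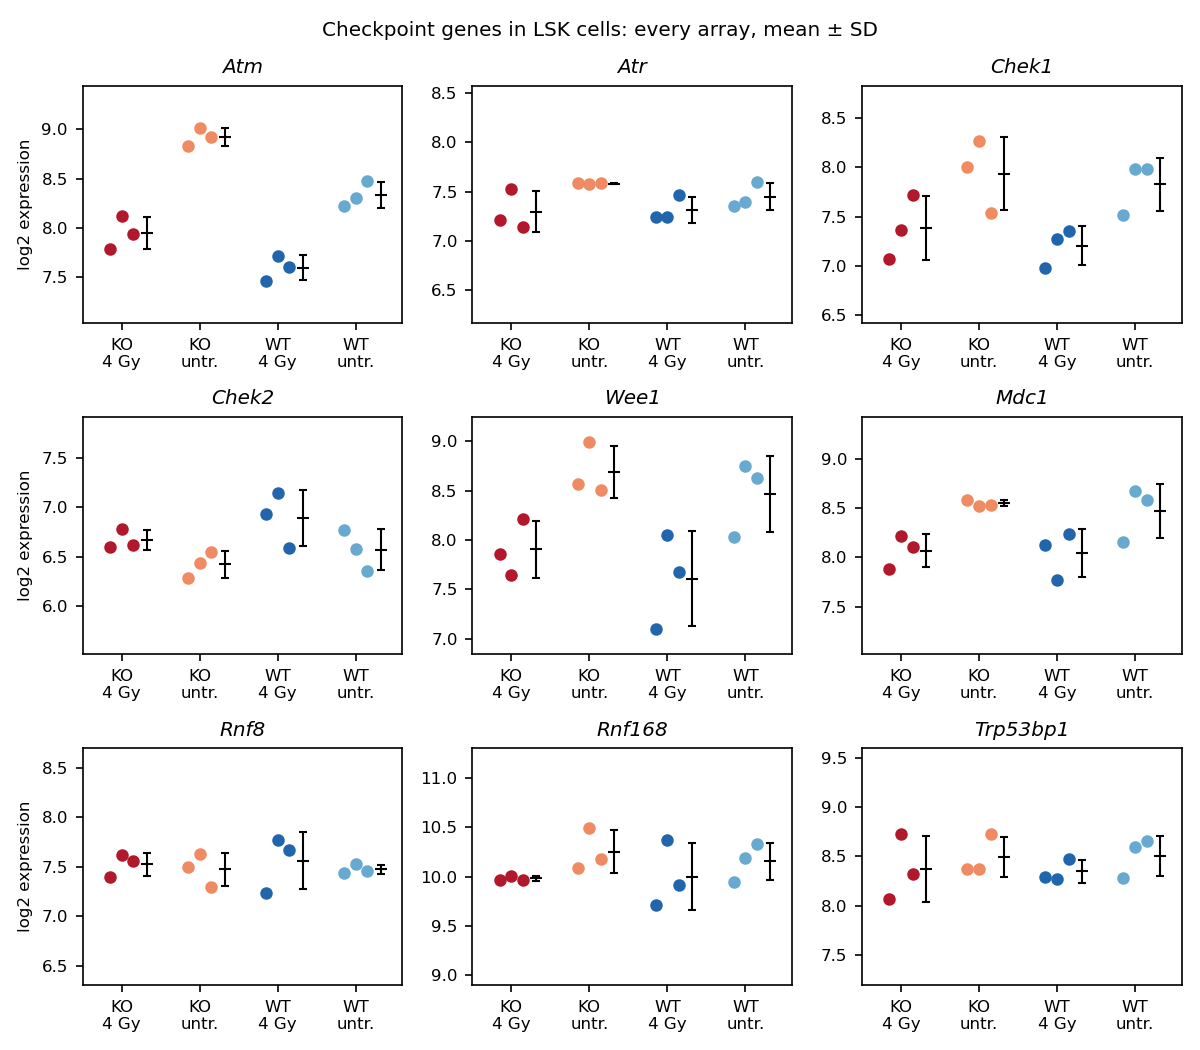
Log2 expression of the 9 measured members in every array (points, replicates 1 to 3 from left to right) with the group mean and SD (black bars, n = 3); untr. is untreated, and every panel spans the same number of log2 units. The 4 groups of Atm do not overlap, with untreated KO arrays highest.

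Of the other kinases, Chek1 and Wee1 fell in the average over both genotypes and Chek2 leaned the other way. Chek1, which encodes CHK1 (probe set 17525503), had 7.08, 7.37 and 7.72 in irradiated KO cells against 8.01, 8.26 and 7.54 in untreated KO cells. In WT cells it had 6.98, 7.27 and 7.36 against 7.52, 7.98 and 7.98. The WT groups did not overlap, and the KO groups did. The differences of -0.55 in KO (SE 0.21, adjusted p = 0.17) and -0.62 in WT cells (SE 0.21, adjusted p = 0.12) did not pass singly. Averaged over both genotypes, a contrast with a smaller error, Chek1 fell by 0.58 (SE 0.15, adjusted p = 0.019). That call was lost without untreated WT array 2 (adjusted p = 0.051) or untreated WT array 3 (adjusted p = 0.052).

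Wee1, the kinase that keeps CDK1 phosphorylated and inactive, had the largest standard error of the members. Its values (probe set 17481743) were 7.86, 7.65 and 8.22 in irradiated KO cells, all below the 8.57, 8.99 and 8.51 of untreated KO cells. In WT cells they were 7.10, 8.05 and 7.67 after irradiation and 8.03, 8.75 and 8.63 without it, so that 1 irradiated array lay just above the lowest untreated one. The differences were -0.78 in KO (SE 0.26, adjusted p = 0.098) and -0.86 in WT cells (SE 0.26, adjusted p = 0.078). Averaged over both genotypes, Wee1 fell by 0.82 (SE 0.18, adjusted p = 0.0086), a 1.77-fold lower level. With the replicate number as a block, a pairing that the WT arrays bear out and the KO arrays in the same fit do not, the WT difference passed (adjusted p = 0.022). It also passed without untreated WT array 1 (adjusted p = 0.037) or irradiated WT array 2 (adjusted p = 0.043), where it was -1.08 each time.

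Chek2, which encodes CHK2 (probe set 17440575), had 6.60, 6.78 and 6.62 in irradiated KO cells, against 6.28, 6.44 and 6.55 in untreated KO cells. In WT cells it had 6.93, 7.15 and 6.59 after irradiation and 6.77, 6.58 and 6.35 without it. Irradiated KO arrays lay above all untreated KO arrays, while the WT groups overlapped. The differences were 0.24 in KO (SE 0.15, adjusted p = 0.42) and 0.32 in WT cells (SE 0.15, adjusted p = 0.27), with an average of 0.28 (SE 0.11, adjusted p = 0.096). The average passed without irradiated WT array 3 (0.36, adjusted p = 0.036). The irradiation difference of Chek2 exceeded that of Chek1 by 0.79 in KO and 0.94 in WT cells. This pair was set side by side after the values were seen, so the gap is given without a test.

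Among the adaptors and ligases at the break, Mdc1 fell in the average over both genotypes, and the other 3 members did not pass any test. Mdc1, the adaptor that reads phosphorylated H2AX (probe set 17337250), had 7.88, 8.21 and 8.11 in irradiated KO cells, clear of the 8.58, 8.53 and 8.53 of untreated KO cells. In WT cells it had 8.13, 7.77 and 8.24 after irradiation and 8.15, 8.67 and 8.58 without it, with overlap. The differences were -0.48 in KO (SE 0.16, adjusted p = 0.10) and -0.42 in WT cells (SE 0.16, adjusted p = 0.16). The average fell by 0.45 (SE 0.11, adjusted p = 0.016), a call lost when both arrays high in Ebf1 were left out (-0.47, adjusted p = 0.061).

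Rnf8, the first ubiquitin ligase at the break (probe set 17335567), had 7.40, 7.62 and 7.55 in irradiated and 7.50, 7.63 and 7.29 in untreated KO cells. In WT cells it had 7.23, 7.78 and 7.67 against 7.44, 7.53 and 7.46. The groups overlapped in both genotypes, with differences of 0.05 in KO (95% CI -0.26 to 0.36) and 0.08 in WT cells (95% CI -0.23 to 0.40). Rnf168, the ligase that extends its mark (probe set 17324762), had 9.97, 10.01 and 9.97 in irradiated and 10.09, 10.50 and 10.18 in untreated KO cells. WT cells had 9.71, 10.37 and 9.91 against 9.95, 10.19 and 10.33. Its irradiated KO arrays lay just below the untreated ones, and the WT groups overlapped, with differences of -0.27 in KO (95% CI -0.64 to 0.10) and -0.16 in WT cells (95% CI -0.52 to 0.21). Trp53bp1, which encodes 53BP1 (probe set 17390448), had 8.07, 8.72 and 8.32 in irradiated and 8.38, 8.37 and 8.73 in untreated KO cells. WT cells had 8.30, 8.27 and 8.48 against 8.28, 8.59 and 8.65, and the groups overlapped in both genotypes. Its differences were -0.12 in KO (95% CI -0.49 to 0.25) and -0.16 in WT cells (95% CI -0.53 to 0.21). For these 3 genes the intervals leave room for changes of up to 0.64 in size, so an absence of change was not shown.

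Counted together, 1 of the 9 members fell and 0 rose in irradiated KO cells, where 5.94% of the 15348 genes tested passed, 2.74% higher and 3.2% lower. In WT cells 1 of 9 fell and 0 rose, where 4.83% of all genes passed, 2.13% higher and 2.7% lower. In the average over genotypes 4 of 9 fell, Atm, Chek1, Wee1 and Mdc1, and 0 rose, where 16.5% of all genes passed, 6.9% higher and 9.6% lower. At an unadjusted p under 0.05, 5 of 9 members differed in KO cells, 4 of 9 in WT cells and 6 of 9 in the average, against 19.9%, 19.8% and 30.1% of all genes. Differences were negative for 7 of the 9 in each genotype, the exceptions being Chek2 and Rnf8. Over all 15348 genes tested, they were negative for 8334 in KO and 7563 in WT cells. The median difference of the members was -0.29 in KO and -0.16 in WT cells, where that of all genes tested was -0.02 and 0.00. The arrays of the dose groups did not overlap for 6 of 9 members in KO cells, where this held for 23.4% of all genes, and for 2 of 9 in WT cells, where it held for 24.8%.

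**Figure D2:**
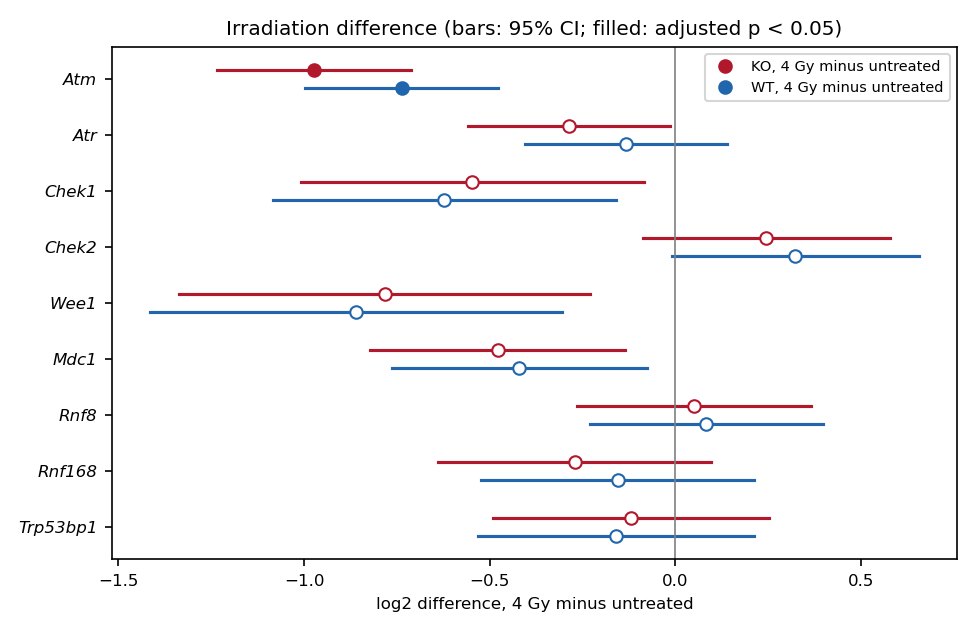
Log2 difference between irradiated and untreated cells (x axis) for each member (y axis), in KO cells (upper, red) and WT cells (lower, blue), with 95% confidence intervals from limma; filled points have an adjusted p under 0.05. Atm is filled in both genotypes, at -0.97 in KO and -0.74 in WT cells.

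Every measured gene of the G2/M and G1/S lists below had a negative difference in both genotypes, as had 7 of the 9 members. Among the 15348 genes tested, differences were negative for 8334 in KO and 7563 in WT cells. The share that passed the test as lower was 3.2% in KO and 2.7% in WT cells. Of 16 genes of a G2/M and mitosis list, 15 fell in irradiated KO cells (median -1.47) and 16 in irradiated WT cells (median -1.64), among them the kinetochore gene Nuf2 at -1.87 and -1.88 and the spindle checkpoint kinase gene Ttk at -1.61 and -1.81. Birc5, which encodes survivin, fell by 2.01 and 2.08, and Hmmr by 1.73 and 1.98. Of 15 measured G1/S and replication genes, 4 fell in KO (median -0.39) and 2 in WT cells (median -0.47), and the differences of all 15 were negative in both. The thymidylate synthase gene Tyms fell by 0.75 in each genotype, and the ribonucleotide reductase gene Rrm1 by 0.91 in KO and 0.84 in WT cells, calls lost under 5 of 21 alternatives in each. The helicase gene Mcm2 passed in KO cells (-0.71, adjusted p = 0.041, lost under 9 of 21 alternatives) and had -0.68 in WT cells (adjusted p = 0.055, passing under 3). The cyclin gene Ccne1 passed in KO cells (-0.70, adjusted p = 0.038, lost under 11) and had -0.47 in WT cells (adjusted p = 0.16). Their interactions of -0.03 for Mcm2 and -0.23 for Ccne1 did not pass (adjusted p = 1.0 for each). Without both arrays high in Ebf1, the KO calls of Rrm1 (adjusted p = 0.19), Mcm2 (0.22) and Ccne1 (0.17) were lost. The mean log2 level of the G2/M list was 6.93 to 7.68 in irradiated KO against 8.32 to 8.80 in untreated KO arrays, and 6.86 to 7.10 in irradiated WT against 8.27 to 8.85 in untreated WT arrays. The part of cell cycle state in the differences of Chek1, Wee1 and Mdc1 was not tested.

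The comparison of KO with WT cells asks whether loss of NIPA alters the resting level of these genes or their level after irradiation. No member passed the limma test in either state: the count was 0 of 9 after irradiation and 0 of 9 without it, where 0.00652% of all genes, the 1 gene Zc3hc1, passed. At an unadjusted p under 0.05 it was 1 of 9 each time, Atm, against 3.07% of all genes after irradiation and 2.15% without it. Atm was higher in all 3 KO arrays than in all 3 WT arrays at each dose, by 0.35 after irradiation (SE 0.12, 95% CI 0.09 to 0.61, adjusted p = 1.0) and by 0.59 without it (SE 0.12, 95% CI 0.33 to 0.85, adjusted p = 1.0), a 1.5-fold difference. It was the 1 member of 9 whose genotypes did not overlap, where this held in either direction for 6.4% of all genes after irradiation and 7.96% without it. The average over doses was 0.47 (SE 0.08, unadjusted p = 0.00012, adjusted p = 0.35), again the 1 member of 9 with an unadjusted p under 0.05, against 4.14% of all genes. Ordered by p, Atm stood in place 3 of 15348 without irradiation and in the average, and in place 97 after irradiation. The size stayed between 0.53 and 0.66 without irradiation over 21 alternatives, with adjusted p of 0.44 to 1.0.

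The other 8 members showed smaller differences between genotypes. After irradiation Wee1 averaged 7.91 ± 0.29 in KO and 7.61 ± 0.48 in WT cells, a difference of 0.30 (SE 0.26). Without irradiation it averaged 8.69 ± 0.26 in KO and 8.47 ± 0.39 in WT cells (SD, n = 3 each), a difference of 0.22 (SE 0.26). Chek2 was lower in KO cells on average, by -0.22 after irradiation (SE 0.15) and -0.15 without it (SE 0.15), with overlapping groups. Chek1 had differences of 0.18 and 0.11, and Atr, Mdc1, Rnf8, Rnf168 and Trp53bp1 lay between -0.04 and 0.13 in both states. Over all 9 members the median half-width of the 95% intervals was 0.34, which limits the genotype effects that 3 arrays a group could show.

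**Figure D3:**
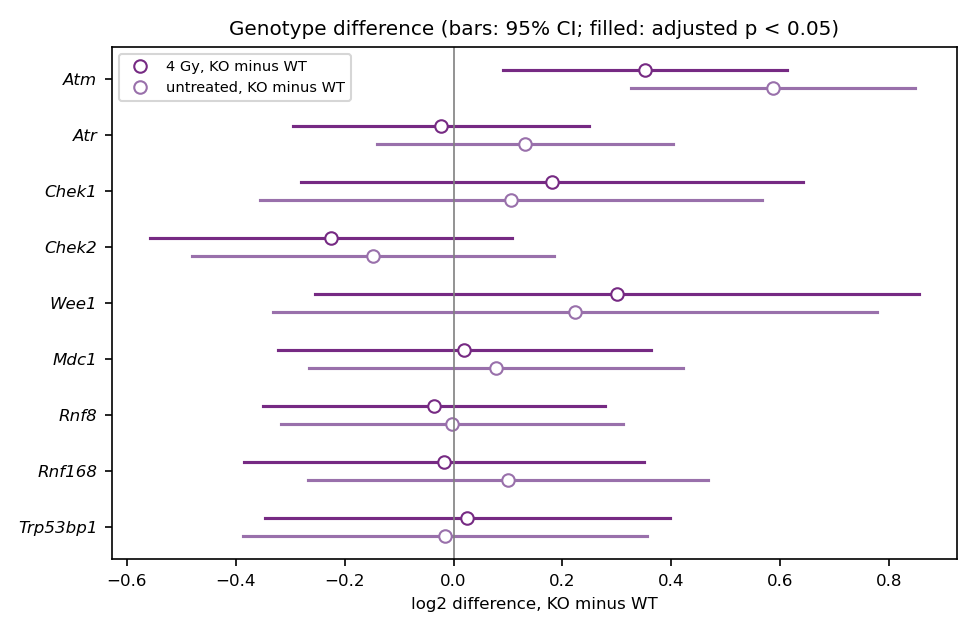
Log2 difference between KO and WT cells (x axis) for each member (y axis), after 4 Gy (upper, dark) and without irradiation (lower, light), with 95% confidence intervals from limma; filled points would have an adjusted p under 0.05, and there are none. Atm is the only member whose intervals exclude 0 in both states, at 0.35 and 0.59.

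The 4 measured erythroid genes had negative irradiation differences in both genotypes, as Atm had. After irradiation, KO and WT arrays overlapped for each of these genes, while those of Atm did not. The sort had removed cells that carry TER119, a surface marker of later red cell precursors. Of 6 erythroid markers, 4 had a probe set of their own, and their mean log2 level was 5.64 to 5.97 in irradiated KO, 6.89 to 7.06 in untreated KO, 5.68 to 5.84 in irradiated WT and 6.47 to 6.78 in untreated WT arrays. Car1, the carbonic anhydrase of red cell precursors, carried most of this. It was at 5.26 to 6.45 in irradiated KO and 5.47 to 6.03 in irradiated WT arrays, and at 8.92 to 9.40 in untreated KO against 7.76 to 8.26 in untreated WT arrays. The genotype difference of Car1 without irradiation was 1.16 (SE 0.27, adjusted p = 1.0). The mean of the other 3, Klf1, Epor and Gata1, was 6.19 to 6.28 in untreated KO and 6.04 to 6.29 in untreated WT arrays, which overlapped. The part of erythroid-primed cells in the Atm differences was not tested.

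**Figure D4:**
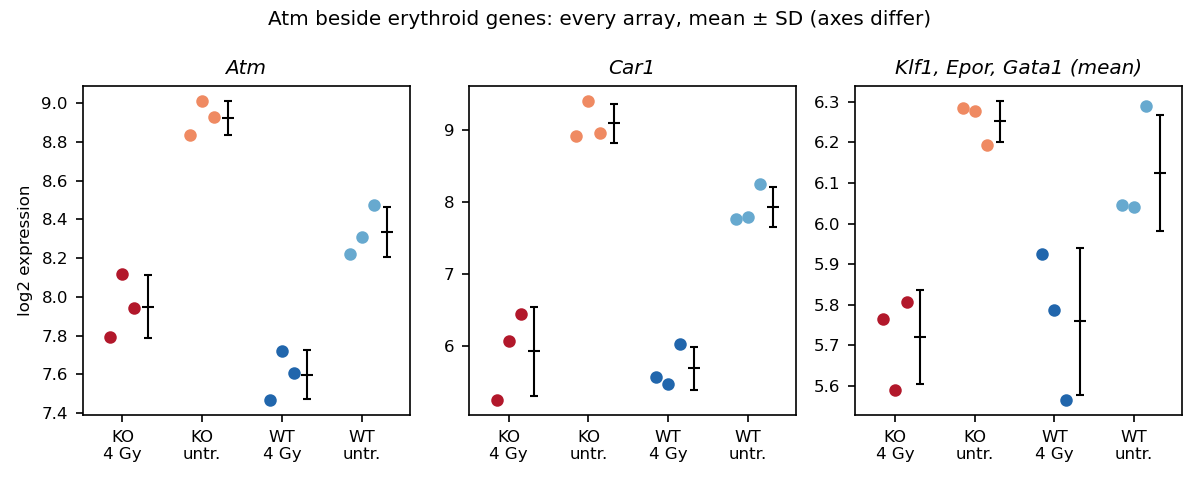
Log2 expression of Atm, of Car1 and of the mean of Klf1, Epor and Gata1 in every array (points, replicates 1 to 3 from left to right) with the group mean and SD (n = 3); the y axes differ. Untreated KO arrays are highest for Atm and Car1, while untreated KO and WT arrays overlap in the mean of the other erythroid genes.

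The interaction, the irradiation difference in KO minus that in WT cells, tests whether the response depends on NIPA. It was -0.24 for Atm (SE 0.17, 95% CI -0.60 to 0.13, limma adjusted p = 1.0), so the difference between genotypes in the fall of Atm was within the error. The other members had interactions from -0.15 for Atr to 0.08 for Wee1 and Chek1. None of the 9 passed, and 0 of the 9 had an unadjusted p under 0.05; among all genes 0 passed and 1.53% had an unadjusted p under 0.05. The median half-width of the members' intervals was 0.49, which limits the differences that could be detected.

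Around these members, 58 other measured genes of the pathway were grouped by role. In irradiated KO cells 5 of the 58 rose and 9 fell, and in irradiated WT cells 5 rose and 11 fell, where 2.74% and 2.13% of all genes rose and 3.2% and 2.7% fell. Their median was -0.25 in each genotype. In the average over genotypes 8 of the 58 rose and 26 fell, against the 6.9% and 9.6% of all genes given above. These counts moved with single arrays. In KO cells 14 genes passed in all, against 8 without untreated array 1 or 2 or irradiated array 3, 9 without untreated array 3, 22 without irradiated array 1 and 6 without both arrays high in Ebf1. In WT cells 16 passed, against 8 without untreated array 2 or irradiated array 3 and 9 without untreated array 3.

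Of 9 measured genes of p53 control, 3 rose and 0 fell in each genotype, and 4 rose in the average. Over all genes, 2.74% rose in KO cells, 2.13% in WT cells and 6.9% in the average. Mdm4, which holds p53 inactive, rose by 1.44 in KO (SE 0.12, adjusted p = 4.9e-05) and 1.83 in WT cells (SE 0.12, adjusted p = 1.2e-05). Mdm2, which marks p53 for degradation, rose by 1.67 in KO and 1.60 in WT cells. Ppm1d, the phosphatase WIP1 that reverses ATM signals, rose by 0.62 (adjusted p = 0.047) and 0.69 (adjusted p = 0.033), calls lost under 13 and 6 of the 21 alternatives, in KO cells also without both arrays high in Ebf1 (adjusted p = 0.29). The share of all genes that fell was 3.2% in KO and 2.7% in WT cells. Among 10 measured checkpoint effectors, 4 fell in KO and 6 in WT cells, and 1 rose in each. The fallers included Plk1, the kinase that ends the G2 checkpoint (-2.34 in KO, -2.57 in WT), Cdk1, the kinase that WEE1 restrains (-1.95 and -2.14), Ccna2 (-1.71 and -1.996) and Cdc25c, the phosphatase that CHK1 and CHK2 inhibit (-1.43 and -1.41). The 1 that rose was Cdkn1a, which encodes the inhibitor p21, by 1.31 in KO and 1.26 in WT cells.

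Most mediators had negative differences, 14 of 17 in KO and 12 of 17 in WT cells, with medians of -0.40 and -0.33. Of all 15348 genes tested, 8334 in KO and 7563 in WT cells had negative differences. Of the 17, 1 rose in each genotype, and 3 fell in KO and 4 in WT cells. In the average over genotypes 2 rose and 9 fell, where 6.9% and 9.6% of all genes did. The 1 that rose was Rnf169, a relative of RNF168 that binds the same ubiquitin mark, at 1.03 in KO (SE 0.17, adjusted p = 0.0041) and 1.10 in WT cells (SE 0.17, adjusted p = 0.0028), where Rnf168 itself had -0.27 and -0.16. The KO call of Rnf169 was lost without both arrays high in Ebf1 (adjusted p = 0.052). The fork protection gene Tipin fell by 1.08 and 1.05 and Rif1, a partner of 53BP1, by 0.75 and 0.65. Mad2l2, a subunit of the shieldin complex, fell by 0.47 in WT cells (adjusted p = 0.042) and had -0.42 in KO cells (adjusted p = 0.056). The calls of Tipin were lost under 5 of 21 alternatives in each genotype, those of Rif1 under 5 in KO and 13 in WT cells and that of Mad2l2 in WT cells under 10. Without both arrays high in Ebf1 the adjusted p was 0.23 for Tipin and 0.17 for Rif1 in KO cells, and 0.077 for Rif1 and 0.072 for Mad2l2 in WT cells.

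Of 13 measured sensors, 7 fell in the average over genotypes and 1, Rpa2, in each genotype on its own. Over all genes, 9.6% fell in the average, 3.2% in KO and 2.7% in WT cells. Rpa2 encodes a subunit of the protein that coats single-stranded DNA. It fell by 0.53 in KO (adjusted p = 0.046) and 0.55 in WT cells (adjusted p = 0.043). Each call was lost under 15 of 21 alternatives. Among them was the fit without both arrays high in Ebf1 (adjusted p = 0.37 in KO and 0.066 in WT cells). Differences were negative for 13 of 13 sensors in KO and 12 of 13 in WT cells, with medians of -0.30 and -0.33. This held for 8334 of all 15348 genes tested in KO and 7563 in WT cells. For the MRN complex that recruits ATM, looked up after the values were known, Mre11a had -0.38 and -0.28, Nbn -0.49 and -0.56 and Rad50 -0.04 and 0.04 in KO and WT cells, and none passed in a single genotype. In the average Nbn fell by 0.52 (adjusted p = 0.0049) and Mre11a by 0.33 (adjusted p = 0.031), and Rad50 did not pass (adjusted p = 1.0). Among 9 related kinases and their assembly factors, 1 fell in KO cells, Telo2, whose product helps ATM and ATR to fold, by 0.58 (adjusted p = 0.047, lost under 12 of 21 alternatives, with 0.32 without both arrays high in Ebf1). In WT cells Telo2 had the same difference of -0.58 (adjusted p = 0.053), and the medians of the 9 were -0.05 in KO and 0.02 in WT cells.

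**Figure D5:**
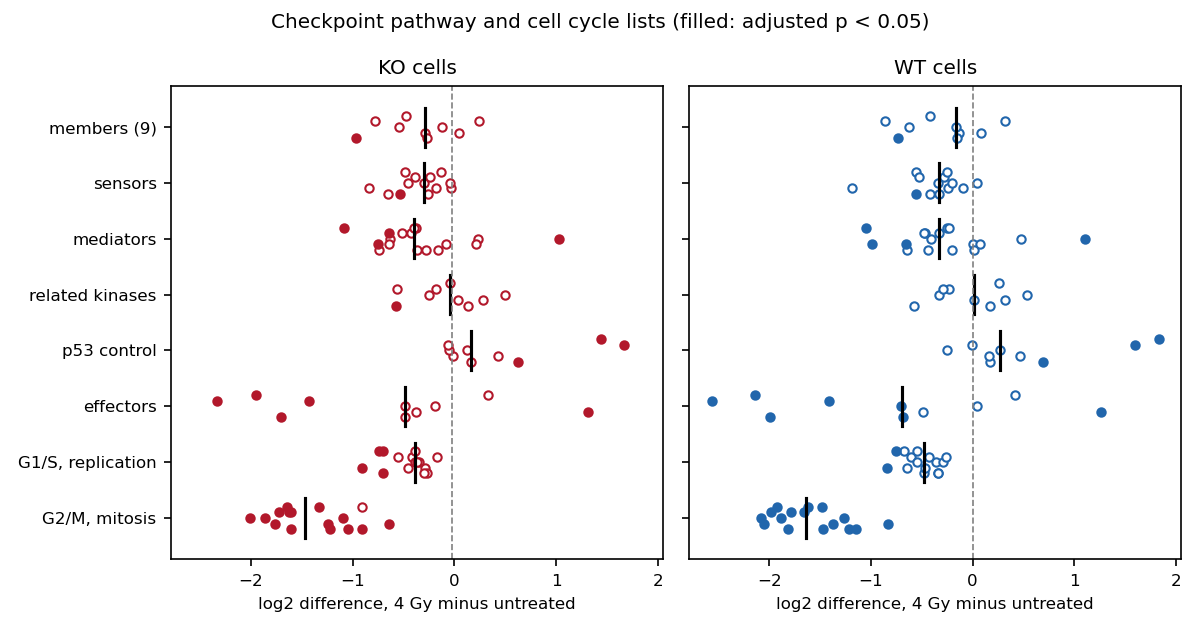
Log2 difference between irradiated and untreated cells (x axis) for every measured gene (points) of the members, 5 pathway lists and 2 cell cycle lists (y axis), in KO cells (left) and WT cells (right); filled points have an adjusted p under 0.05, black bars are list medians and the dashed line is the median of all genes tested. Mdm4, Mdm2, Cdkn1a and the mediator Rnf169 lie to the right of 1, and the G2/M list has the lowest medians, -1.47 in KO and -1.64 in WT cells.

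As a description, the 3 named genes most like each member were found by Pearson correlation of log2 values over the 12 arrays, which share the dose and genotype groups. For Atm they were the ubiquitin ligase gene Rnf144a (r = 0.96), Car1 (0.95) and the condensin gene Ncapd3 (0.94). For Chek1 they were the primase gene Prim2 (0.97), the chromosomal passenger gene Incenp (0.97) and the condensin gene Smc2 (0.96). For Wee1 they were Stmn1, which encodes a tubulin-binding protein (0.98), the integrin gene Itgb7 (0.98) and the replication gene Cdc45 (0.97). Mdc1 was closest to Nfatc2ip, Zfp398 and Scrib (all 0.95), Atr to Grk6 (0.93), Emc8 and Ubtf (both 0.92), and Chek2 to Acadvl (0.93), Smox and Saraf (both 0.92). Trp53bp1 was closest to Dmwd (0.94), Rfx5 (0.93) and Zfp956 (0.92), Rnf168 to Prmt3 (0.93), Sae1 and Rtkn2 (both 0.91), and Rnf8 to Ubac1, Tspan5 (both 0.90) and Bnip3 (0.89).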

How the data were processed

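The deposited table gives each probe set a log2 value on every array, which the authors made with the R package oligo and RMA, per the submitters' processing notes. Neither versions nor the genome build are given in the sources used here. Of 41345 probe sets, 23521 had exactly 1 symbol, 1814 several and 16010 none. Gene IDs of 23328 matched the RefSeq table, through which symbols were updated, giving 22180 genes, each by its brightest probe set.

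Genes were tested if above the 40th percentile of the table (5.29) in at least 3 arrays, which left 15348. limma 3.58.1 in R 4.3.3 (lmFit, eBayes) fitted the 4 groups over all 12 arrays. p-values are two-sided and Benjamini-Hochberg adjusted over all genes tested, with a threshold of 0.05. Exact permutation of 3 against 3 arrays cannot go below p = 0.1, and the number of arrays limits the precision. Data were simulated with the spread of the 15348 genes, independent noise and changes in irradiated KO arrays. There, 26.9% of 67 changes of 0.5, 94.0% of 67 changes of 1 and 95.5% of 66 changes of 2 (log2) were recovered, with 9 false calls. Fewer genes were changed there than the 911 that passed in real KO cells, so these rates may not carry over.

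Same-numbered WT arrays deviated together from their group means (r = 0.42 to 0.49), and the KO arrays as a whole did not. The members and gene lists were chosen with earlier results of these data known. The text names all members and up to 4 passing genes per pathway or cell cycle list, by smallest p of the average irradiation effect. It also names Zc3hc1, Cdkn1a and Mdm2, the genes most like each member, and some of the cell type markers. Alternatives were the brightness limit, scaling, probe sets averaged, the variance prior, the replicate block, fewer arrays and each array left out.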

Additional observations from a re-analysis of the deposited data

How the results depend on the processing

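The falls of Atm in KO and in WT cells kept their direction and their call under every alternative run, and the 0 calls among members in the genotype contrasts and the interaction stayed at 0. Of 1646 alternative values of members and other named genes, 1491 kept direction and side of the threshold, 133 lost a call, 18 gained one and 4 changed sign. Replicate numbers did not pair the KO arrays: r was 0.47, -0.24 and -0.12 for the same number, against 0.52 for irradiated 2 with untreated 3 and 0.44 for irradiated 3 with untreated 2, a hint from the data and not the design. Values with the replicate block in KO cells or in the average are given with that limit. With this block Chek2 passed in the average (adjusted p = 0.043), 2 members, Atm and Wee1, passed in KO and 2 in WT cells in place of 1 each, and 22 pathway genes passed in KO cells in place of 14. Left-out arrays gave 1 to 2 members in WT cells, 8 to 22 pathway genes in KO and 8 to 20 in WT cells. Without both arrays high in Ebf1, chosen after seeing the data, 6 pathway genes passed in KO cells. Sign changes touched only small differences: Atr in WT cells was 0.025 with its 2 probe sets averaged, and with single arrays left out Trp53bp1 in KO cells ran from -0.30 to 0.032, Rnf8 from -0.040 to 0.13 in KO and from -0.025 to 0.25 in WT cells. Over all genes, 911 passed in KO cells against 1390 with the replicate block, 557 with only the arrays compared and 283 without both arrays high in Ebf1; in WT cells 742 passed against 1228 with the block. Leaving out irradiated KO array 1 raised the counts, to 1573 in KO and 1040 in WT cells. The cause of these changes in count was not tested.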

Other observations

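Further probe sets touch 3 members and were not used above. A dimmer probe set of Atr averaged 5.15 in irradiated KO, 5.11 in untreated KO, 5.21 in irradiated WT and 5.03 in untreated WT cells (log2), under the brightness limit in each group mean. A probe set shared by Tubgcp4 and Trp53bp1 averaged 8.65 in irradiated KO and 8.69 in untreated KO cells, and 8.71 in irradiated WT and 8.67 in untreated WT cells. A probe set shared by Cmtr1, Rnf8 and Ccdc167 averaged 8.07 in irradiated KO and 8.15 in untreated KO cells, and 8.12 in both WT groups.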
